A study of Mus musculus with 40 samples.

Results

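Elastic fibres were followed through 10 genes that encode the fibre and the proteins that build it, namely Eln, Fbn1, Mfap4, Mfap5, Fbln1, Fbln2, Fbln5, Efemp2, Emilin1 and Lox. They were taken by gene symbol from the count tables of aorta and kidney, which list 55335 and 55382 genes, and all 10 were present and passed the filter on low counts in both tissues (15122 and 15943 genes tested). The study asked what loss of the epidermal growth factor receptor (EGFR) in endothelial cells does to vessels and kidney under standard and fat-rich feeding. Knockout mice (EC-EGFR-KO, here KO) carried EGFR flox/flox alleles and the Tek-cre transgene B6.Cg-Tg(Tek-cre)1Ywa on a C57BL/6J background. Controls (WT) carried the same cre transgene without loxP sites, so cre was shared by all groups. Mice received a standard fat diet (SFD) with 10% of energy from fat or a high fat diet (HFD) with 60% of energy from fat, the latter for 18 weeks from 6 weeks of age. Each of the 4 groups (SFD and HFD in WT, SFD and HFD in KO) had 5 libraries per tissue, 40 in all. Tek-cre is not inducible and is also active in blood-forming cells, which limits the model, and the RNA came from whole tissue. A lower level in such bulk RNA can mean fewer cells of a type or less RNA per cell, which cannot be told apart here. The sex of the mice is not named in the sources used here, and the p-values measure the spread between these libraries.

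An elastic fibre is a core of cross-linked elastin laid down on a scaffold of fibrillin microfibrils. Fibulins and elastin microfibril interface proteins bring tropoelastin, the soluble elastin monomer, to that scaffold, and lysyl oxidases then join the monomers covalently. In large arteries the fibres form concentric lamellae between layers of smooth muscle and let the wall recoil after each pulse, whereas in the kidney they lie mainly in the arteries. Eln encodes tropoelastin, Fbn1 fibrillin 1, and Mfap4 and Mfap5 proteins bound to microfibrils. Fbln1 and Fbln2 encode fibulins of basement membranes and elastic fibres, Fbln5 and Efemp2 (fibulin 4) the fibulins needed for fibre assembly, Emilin1 a glycoprotein at the interface of elastin and microfibril, and Lox lysyl oxidase.

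Promoter sequence is shown for Efemp2, the gene with the diet call described below, and for Fbln5, its fibulin partner in assembly and the most abundant of the 10 genes per length in kidney. RefSeq (GRCm38.p6) windows were at hand for 6 of the 10 genes, 10 windows in all, and each was read over the 250 bases before a transcript start. Capitals mark GGGCGG, the GC box bound by Sp-family factors, or its complement CCGCCC, with neighbouring matches that share bases printed as 1 run. Of 3 Efemp2 windows on the plus strand of chromosome 19, those at chr19:5473696-5473945 and chr19:5474440-5474689 are shown, and the third, at chr19:5474485-5474734, overlaps the latter and is left out. Of 2 Fbln5 windows on the minus strand, the one at chr12:101819120-101819369 is shown and the one at chr12:101818485-101818734 is not. Each is printed 5′ to 3′ along the gene.
Efemp2, upstream start: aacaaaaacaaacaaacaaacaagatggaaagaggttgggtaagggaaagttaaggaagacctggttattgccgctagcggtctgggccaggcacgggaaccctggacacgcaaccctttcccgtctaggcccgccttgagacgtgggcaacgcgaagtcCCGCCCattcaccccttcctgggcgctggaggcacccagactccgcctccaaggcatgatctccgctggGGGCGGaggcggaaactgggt
Efemp2, downstream start: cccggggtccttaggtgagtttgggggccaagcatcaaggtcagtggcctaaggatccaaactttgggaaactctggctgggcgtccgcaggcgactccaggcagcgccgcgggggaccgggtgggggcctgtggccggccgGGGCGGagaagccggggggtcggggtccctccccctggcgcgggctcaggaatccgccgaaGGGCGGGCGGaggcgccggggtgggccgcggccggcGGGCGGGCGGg
Fbln5: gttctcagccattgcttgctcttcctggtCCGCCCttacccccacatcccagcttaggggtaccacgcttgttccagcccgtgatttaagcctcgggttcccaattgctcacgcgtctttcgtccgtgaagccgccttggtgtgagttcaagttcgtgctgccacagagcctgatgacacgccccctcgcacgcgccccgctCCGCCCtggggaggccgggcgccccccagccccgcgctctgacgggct

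The upstream Efemp2 window held 2 such boxes in 59.2% G and C, the downstream window held 5 in 75.6%, and the window left out held 5 in 78.8%, against a median G and C content of 52.4% over all windows of this length. The printed Fbln5 window held 2 boxes in 65.2% G and C, and the other held 0 in 49.6%, below that median. On either strand, GGGCGG was found in 7 of the 10 windows of these genes and in 32.7% of the 32851 windows of all genes. The 10 windows come from 6 genes, and those of Fbln1 and some of Efemp2 overlap each other, so they are not independent. TATAAA, the TATA box, was found in 0 of the 10 and in 12.4% of all. These matches describe the letters only, and the counts are per gene and do not tell transcript starts apart.

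Counts totalled 17520161 to 36452741 per aorta and 19643033 to 48833447 per kidney. Levels are given as FPM, fragments per 1000000 after TMM scaling, and levels of different genes were compared per kilobase of exon. In each tissue 1 pair of libraries with different labels was near-identical, R-1 (WT SFD) with R-12 (KO SFD) in aorta and a1 (KO HFD) with a12 (WT HFD) in kidney. Over genes with at least 50 counts, the median chi-square within the pair was 0.0257 in aorta and 0.0246 in kidney. That is closer than independent sampling of reads would give, and the reason was not tested. Which label belongs to the shared profile cannot be told apart. The diet changes of Mfap5 in aorta and Efemp2 in kidney are therefore also given without both libraries. Correlations average the pair. Other results, among them all calls of markers and partner genes, include both libraries unless stated. In kidney both carry an HFD label, so diet comparisons over both genotypes hold this profile once in each genotype. Egfr ranged from 29.9 to 54.2 FPM in the 10 WT aortas and from 36.9 to 54.7 FPM in the 10 KO aortas, and its log2 fold change between genotypes over both diets was 0.14 (adjusted p = 0.729, edgeR). In kidney it ranged from 21.7 to 64.5 FPM in WT and from 34.6 to 60.5 FPM in KO, and the genotypes differed by -0.01 on the log2 scale (adjusted p = 0.990, edgeR). These counts cover the whole Egfr gene in all cells of the tissue, and reads of the floxed exon were not analysed here. The labelled tissues matched their markers: Acta2 and Myh11, the smooth muscle actin and myosin, averaged 21786 and 9210 FPM in aorta, and the tubule genes Slc34a1 and Umod averaged 5409 and 2124 FPM in kidney. Of the smooth muscle markers, Tagln and Cnn1 were listed at 0 in every library of both tissues, as were Cdh5 among endothelial and Clec3b among fibroblast markers. A 0 of this kind is not read as lack of expression, and its reason was not tested.

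The aorta expressed elastic fibre genes at high and strongly unequal levels. Eln (chr5:134702593-134747323, minus strand, 8.098 kb of exon) averaged 5538 ± 1101 FPM (SD, n = 20) and was 12th among all genes by FPM and 65th per kilobase. Alone it supplied between 44.0% and 68.6% of the counts of the 10 genes, and between 0.219% and 0.721% of all counts of a library. Per kilobase of exon, the mean level was 684 FPM for Eln and 392 FPM for Mfap4, and Eln was the higher of the 2 in 19 of 20 aortas. Fbln5 followed at 99.4 FPM per kilobase, below Mfap4 in 20 of 20 aortas. Then came Mfap5 at 75.6 FPM per kilobase, which was lower than Fbln5 in 15 of 20 aortas. Fbln1, Lox and Emilin1 lay close together at 60.0, 54.9 and 53.9 FPM per kilobase, and the order of Lox and Emilin1 held in only 11 of 20. Efemp2, Fbn1 and Fbln2 closed the list at 37.4, 33.0 and 28.4 FPM per kilobase. Efemp2 exceeded Fbn1 in 11 of 20 aortas and Fbn1 exceeded Fbln2 in 12 of 20, so these neighbours did not differ beyond their spread.

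The kidney held the same genes at far lower levels and in another order. Fbln5 led at 18.3 FPM per kilobase, Emilin1 followed at 7.01 and Efemp2 at 2.70, and each of these steps held in 20 of 20 kidneys. Eln came after them with 1.12 FPM per kilobase, above Fbln1 (0.820) in 19 of 20 kidneys. Fbn1, Fbln2, Lox, Mfap4 and Mfap5 lay between 0.773 and 0.196 FPM per kilobase. Mfap4 and Mfap5 rested on 8 to 36 and 4 to 38 counts per kidney, so single reads matter there. The 2 tissues stand in tables scaled separately and were not tested against each other, but for each of the 10 genes the lowest aorta lay above the highest kidney. The ratio of mean FPM, aorta over kidney, was 1143 for Mfap4 and 609 for Eln. It was 385 for Mfap5, 135 for Lox, 73.2 for Fbln1, 56.7 for Fbln2 and 42.7 for Fbn1. The assembly genes stood nearest to each other, with ratios of 13.9 for Efemp2, 7.68 for Emilin1 and 5.42 for Fbln5.

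**Figure D1:**
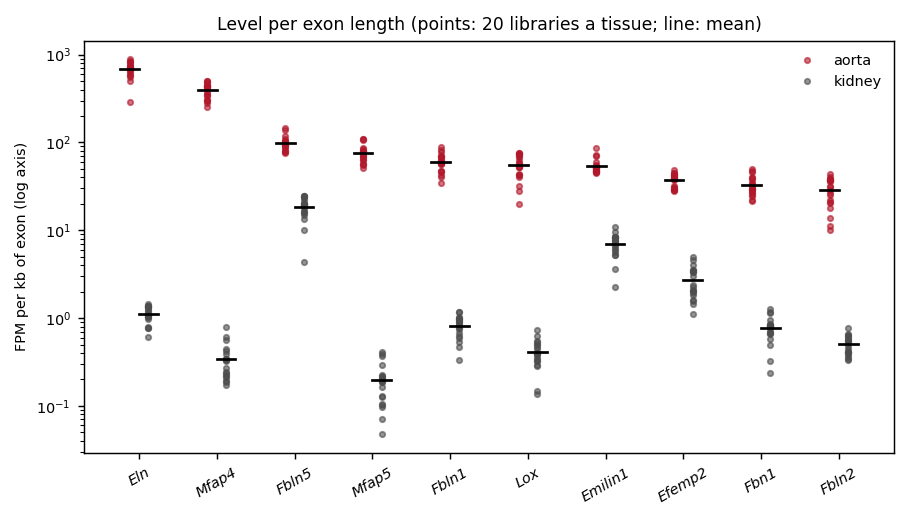
Level of the 10 elastic fibre genes per kilobase of exon (FPM per kb, log axis) in 20 aortas (red) and 20 kidneys (grey), with a line at each mean. Eln at 684 leads in aorta and Fbln5 at 18.3 in kidney, and in no gene do the tissues overlap.

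Eln varied more between aortas of a group than between groups. In WT SFD it measured 6093, 5659, 5641, 6668 and 6892 FPM in R-1 to R-5. In WT HFD it measured 7140, 2360, 4727, 5294 and 5723 FPM in R-6 to R-10. This group held both the highest and the lowest of the 20 aortas, R-6 and R-7. In KO SFD the values were 4088, 5837, 6027, 4750 and 5088 FPM in R-11 to R-15. In KO HFD they were 4490, 5615, 6633, 5754 and 6287 FPM in R-16 to R-20. All groups overlapped. The log2 fold change of HFD against SFD was -0.29 in WT (SE 0.20) and 0.16 in KO (SE 0.20), and the test of the difference between these effects gave 0.45 with a 95% interval from -0.15 to 1.06 (adjusted p = 1.00, edgeR).

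R-7 stood apart in its elastin. Its Eln level of 2360 FPM came from 42922 counts, and Eln made up 44.0% of the counts of the 10 genes there, against 57.6% to 68.6% in the other 19 aortas. Lox, whose product cross-links elastin, was also lowest of the 20 in R-7, at 94.7 FPM. Fbn1 was the lowest of its group there, at 271 FPM against 303 to 575 FPM in the other WT HFD aortas. Mfap4 at 928 FPM and Fbln5 at 684 FPM lay within the range of the other aortas of the group. The summed smooth muscle markers measured 39789 FPM in R-7, within the range of 28375 to 41297 FPM of the 5 WT HFD aortas. Eln was also the exception within the near-identical pair of aortas. R-1 held 216590 Eln counts and R-12 held 207446, a difference of 4.50% after scaling with a chi-square value of 206, the third largest of all genes, whereas the median over genes with at least 50 counts was 0.0257. The other 9 genes of the list reached at most 0.251 in that comparison.

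None of the 10 genes passed the test for genotype in aorta. The share of all genes called was 0% under SFD, 0% under HFD and 0.0198% over both diets, with 2.28%, 5.85% and 8.78% of genes at an unadjusted p under 0.05, and 0 of the 10 elastic fibre genes reached that looser threshold in any of these comparisons. Over both diets their log2 fold changes of KO against WT ran from -0.12 for Efemp2 to 0.35 for Fbln2. The median of the 10 was 0.03, beside 0.00 over all genes. Fbln2 had the widest interval, from -0.15 to 0.86 (SE 0.24, adjusted p = 0.714, edgeR). Its levels ranged from 63.9 to 281 FPM in WT and from 87.5 to 261 FPM in KO, so the genotypes overlapped nearly fully. For Eln the interval ran from -0.34 to 0.27. The interaction of genotype and diet called 0 of the 10 genes, beside 0% of all genes (0.84% at an unadjusted p under 0.05).

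**Figure D2:**
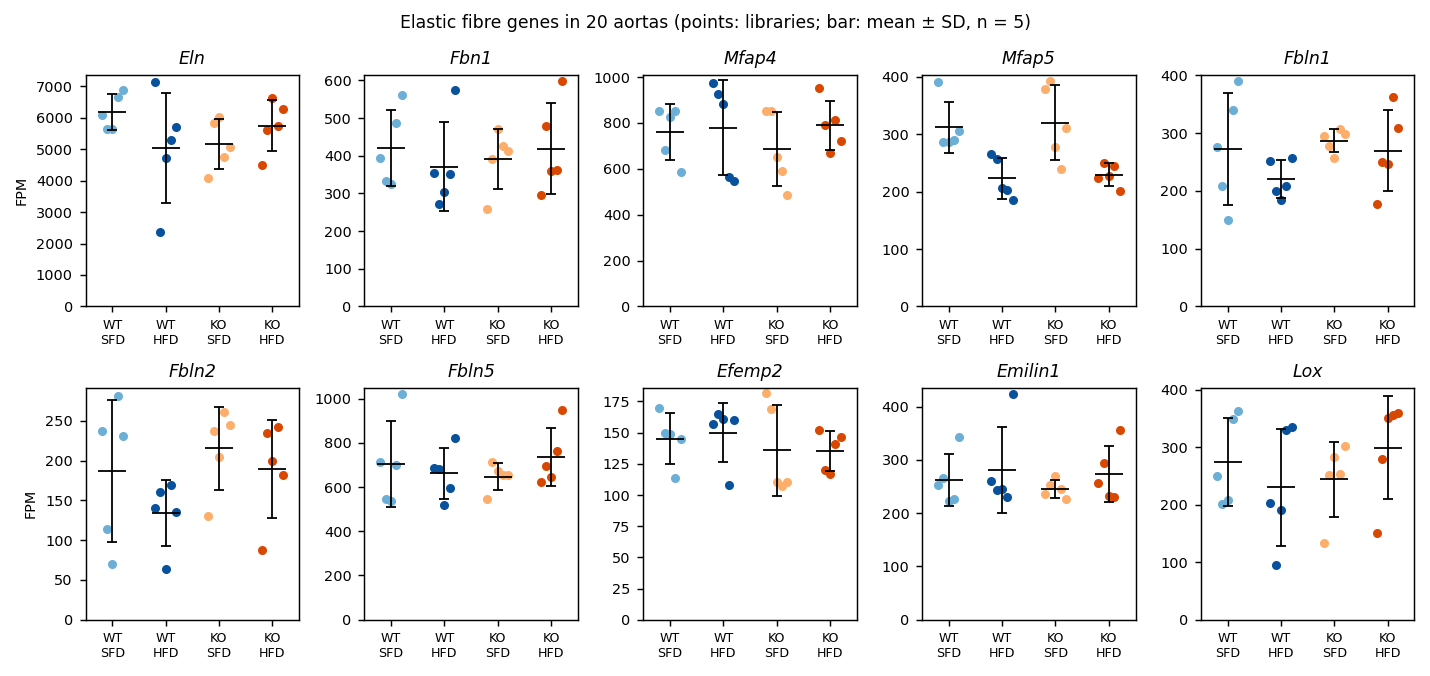
FPM of each elastic fibre gene in 20 aortas, points being libraries and bars the mean ± SD of 5. Mfap5 is lower under HFD in both genotypes, and R-7 in WT HFD has the lowest Eln at 2360 FPM.

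Among the 10 genes, Mfap5 moved most clearly with diet in aorta, downwards in both genotypes, without passing the adjusted threshold. Mfap5 (chr6:122505845-122529290, plus strand) encodes microfibril-associated glycoprotein 2, which binds fibrillin and TGF-beta family ligands. In WT SFD it measured 391, 287, 287, 290 and 305 FPM in R-1 to R-5, and in WT HFD 265, 257, 207, 203 and 185 FPM in R-6 to R-10. The WT diets did not overlap. In KO SFD it measured 379, 394, 278, 240 and 310 FPM in R-11 to R-15, and in KO HFD 224, 250, 228, 245 and 200 FPM in R-16 to R-20. Here the lowest SFD aorta, R-14 with 240 FPM, lay below the 2 highest HFD aortas. The log2 fold change was -0.48 in WT (SE 0.14, unadjusted p = 0.00292, adjusted p = 1.00, edgeR) and -0.48 in KO (SE 0.14, unadjusted p = 0.00300, adjusted p = 0.987, edgeR). Over both genotypes it was -0.48 with a 95% interval from -0.69 to -0.27 (adjusted p = 0.143, edgeR), rank 12 of 15122 genes by p. DESeq2 gave -0.47 with an adjusted p of 0.00364. The share of all genes that DESeq2 called was not recorded, and DESeq2 was not run without R-1 and R-12. The effect of diet did not differ detectably between genotypes, with an interaction of 0.00 and an interval from -0.42 to 0.42.

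R-1 and R-12, the near-identical aortas, held 2 of the 3 highest Mfap5 levels, and without both the change over both genotypes was -0.39 (adjusted p = 0.536, edgeR). Markers of cells around the vessel were examined beside it. All 6 fibroblast markers tested had a negative log2 fold change in each genotype, with a median of -0.30 in WT and -0.21 in KO and none called. The summed fibroblast markers ranged from 1767 to 4279 FPM in WT SFD and from 2113 to 2916 FPM in WT HFD, and from 2714 to 4093 FPM in KO SFD and from 1770 to 4095 FPM in KO HFD. The adipocyte list had a median of -1.43 in WT and -0.81 in KO, with 5 of 6 markers negative in each. Lep went the other way, with 0.79 in WT and 1.63 in KO and no call. Cfd, the adipocyte gene of complement factor D, was called lower over both genotypes (log2 fold change -2.44, adjusted p = 0.0356, edgeR). Summed adipocyte markers ranged from 71.8 to 341 FPM in WT SFD and from 5.85 to 72.0 FPM in WT HFD, with no marker of the list at 0 throughout. They ranged from 30.1 to 145 FPM in KO SFD and from 23.5 to 33.95 FPM in KO HFD. Their part in the Mfap5 difference was not tested.

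By edgeR, no elastic fibre gene was called for diet in aorta, while DESeq2 called Mfap5 over both genotypes, as given above. In WT this was 0 of 10 beside 0.0132% of all genes (2.61% at an unadjusted p under 0.05), in KO 0 of 10 beside 0% (4.56%), and over both genotypes 0 of 10 beside 0.0529% (6.70%). Mfap5 alone of the 10 had an unadjusted p under 0.05. In WT, 3 of the 10 genes had a positive log2 fold change and the median was -0.21, beside 52.8% of all genes and a median of 0.01. In KO, 6 of the 10 were positive with a median of 0.13, beside 48.0% of all genes and a median of -0.01. Only Mfap5 showed diet groups without overlap in WT, a pattern that 0.410% of genes had, and 0 of the 10 did so in KO, where 0.721% of genes had it. Lox had wide intervals, from -0.89 to 0.40 in WT and from -0.35 to 0.94 in KO. Its levels had a lowest, median and highest of 201, 250 and 363 FPM in WT SFD, 94.7, 203 and 335 FPM in WT HFD, 134, 254 and 302 FPM in KO SFD and 152, 350 and 360 FPM in KO HFD. These ranges overlapped throughout.

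The remaining 7 genes showed no diet call in aorta by either tool, and each had groups that overlapped. Fbn1 ranged from 258 to 598 FPM over the 20 aortas, Fbln5 from 521 to 1023 FPM and Mfap4 from 484 to 975 FPM. Emilin1 ranged from 223 to 424 FPM and had the narrowest group in KO SFD, at 246 ± 16.7 FPM (SD, n = 5). Fbln1 ranged from 150 to 389 FPM and Fbln2 from 63.9 to 281 FPM. Fbln2 had the largest coefficient of variation of the 10 genes, 36.4%, and Efemp2 the smallest, 17.02%. In KO SFD, Efemp2 fell into 2 sets of values with a gap between them, 182 and 169 FPM in R-11 and R-12 against 111, 107 and 110 FPM in R-13 to R-15. R-12 belongs to the near-identical pair, and without it the upper set is R-11 alone.

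**Figure D3:**
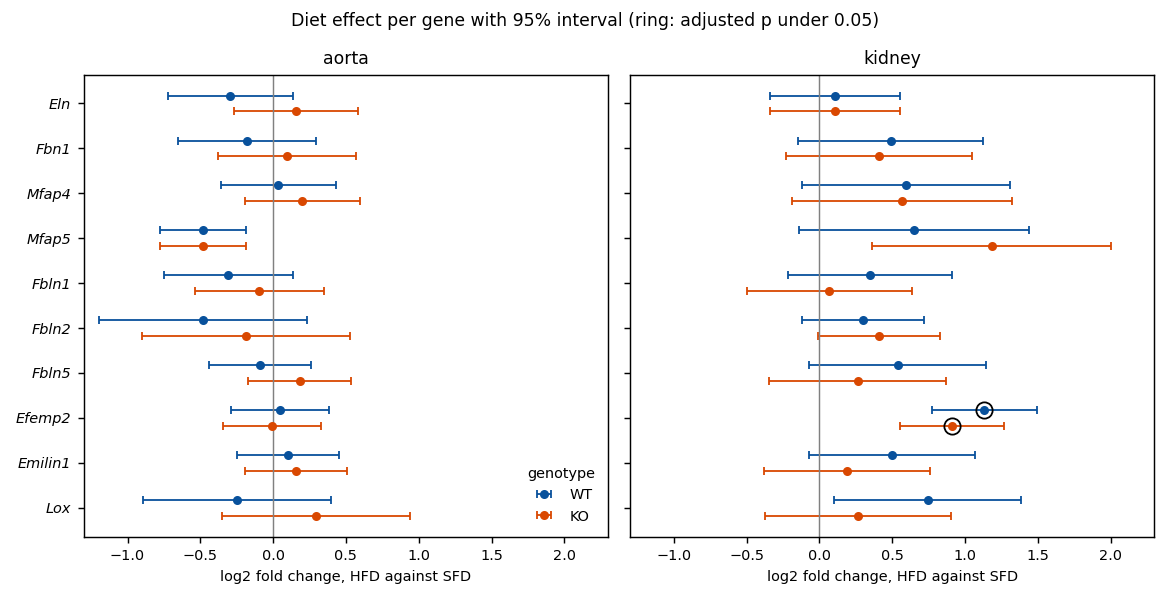
Log2 fold change of HFD against SFD with its 95% interval for each elastic fibre gene in aorta (left) and kidney (right), WT in blue and KO in orange, a ring marking an adjusted p under 0.05. In aorta only the Mfap5 intervals exclude 0, at -0.48 in both genotypes and without a call, and in kidney all 20 point estimates are positive and Efemp2 carries both rings.

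In kidney, Efemp2 rose under HFD in both genotypes. Efemp2 (chr19:5473954-5482517, plus strand, 3.788 kb of exon) encodes fibulin 4, which binds tropoelastin and the propeptide of lysyl oxidase and is needed for elastic fibres and for the cross-linking of collagen. In WT SFD it measured 5.86, 7.30, 4.24, 5.48 and 6.95 FPM in a16 to a20, and in WT HFD 11.3, 13.2, 15.2, 12.98 and 12.6 FPM in a11 to a15. Every WT HFD kidney lay above every WT SFD kidney. In KO SFD it measured 8.61, 6.15, 7.63, 7.94 and 7.63 FPM in a6 to a10, and in KO HFD 13.3, 17.3, 9.02, 18.97 and 12.8 FPM in a1 to a5. The KO groups did not overlap either, although a3 with 9.02 FPM came close to a6. The mean rose from 5.97 ± 1.22 to 13.1 ± 1.38 FPM in WT and from 7.59 ± 0.901 to 14.3 ± 3.93 FPM in KO (SD, n = 5 each). The log2 fold change was 1.13 in WT (SE 0.17, adjusted p = 0.000316, edgeR) and 0.91 in KO (SE 0.17, adjusted p = 0.00197, edgeR). Over both genotypes it was 1.02 with a 95% interval from 0.77 to 1.27 (adjusted p = 5.75e-06, edgeR), rank 157 of 15943 genes by p. The interaction with genotype was -0.22 with an interval from -0.73 to 0.28, so a difference between genotypes was not detectable.

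The Efemp2 values rested on 97 to 632 counts per kidney. Without both near-identical kidneys the change was 1.13 in WT (adjusted p = 0.000962, edgeR) and 0.93 in KO (adjusted p = 0.00440, edgeR). Efemp2 shares 173 bases of exon with Mus81, a DNA endonuclease gene on the opposite strand. Mus81 averaged 14.8 FPM in kidney, and its log2 fold change was 0.24 over both genotypes (adjusted p = 0.0447, edgeR), smaller than that of Efemp2. Whether the counting used strand is not given in the sources used here. In aorta, where Efemp2 averaged 142 FPM, its log2 fold change for diet was 0.02 over both genotypes with an interval from -0.22 to 0.26.

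**Figure D4:**
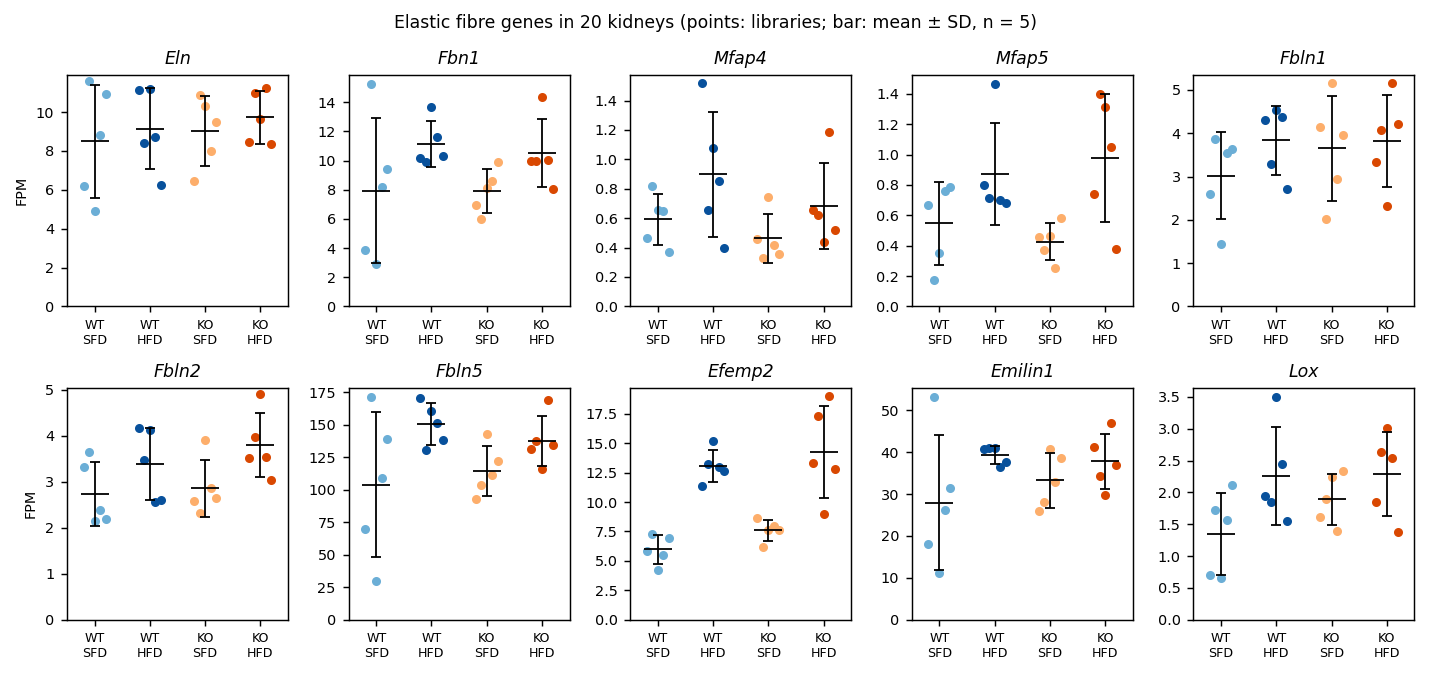
FPM of each elastic fibre gene in 20 kidneys, points being libraries and bars the mean ± SD of 5. For Efemp2 every HFD kidney lies above every SFD kidney of its genotype, and among WT SFD kidneys a17 is highest and a18 lowest in Fbn1, Fbln5 and Emilin1.

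Mfap5 was the other elastic fibre gene called in kidney, and there its direction was upwards. The difference between the tissues was not tested. In WT SFD it measured 0.666, 0.172, 0.350, 0.761 and 0.786 FPM in a16 to a20, and in WT HFD 0.800, 0.716, 1.46, 0.703 and 0.679 FPM in a11 to a15. In KO SFD it measured 0.456, 0.372, 0.466, 0.252 and 0.583 FPM in a6 to a10, and in KO HFD 0.737, 1.396, 1.31, 1.05 and 0.380 FPM in a1 to a5. The diets overlapped in both genotypes, in KO through a5 alone. Over both genotypes the log2 fold change was 0.92 (SE 0.27, adjusted p = 0.0253, edgeR), and it was 0.65 in WT (adjusted p = 0.367, edgeR) and 1.18 in KO (adjusted p = 0.0837, edgeR). The call was lost without a9 (adjusted p = 0.0502, edgeR) or without a13 (adjusted p = 0.0547, edgeR), and the level lay below the 5 FPM that the study's methods required.

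The other 8 genes were all numerically higher under HFD in kidney, and none was called. For the 10 genes together, all 10 log2 fold changes were positive in WT, in KO and over both genotypes, with medians of 0.52, 0.34 and 0.42. Over all tested genes 49.9%, 49.8% and 49.8% were positive and the medians were 0.00. In WT 1 of the 10 was called, beside 6.71% of all genes, in KO 1 of the 10, beside 6.34%, and over both genotypes 2 of the 10, beside 16.4%. Diet groups did not overlap for 1 of the 10 genes in WT, beside 6.64% of all genes, and for 1 of the 10 in KO, beside 7.81%, Efemp2 in each case. The counts are small and near these background shares.

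Lox came next after the called genes in WT kidney, with a log2 fold change of 0.74 (SE 0.31, adjusted p = 0.181, edgeR), and in KO it was 0.27 (SE 0.31, adjusted p = 0.690, edgeR). Its values were 0.699, 1.72, 0.656, 1.56 and 2.11 FPM in WT SFD and 1.94, 1.85, 3.501, 2.44 and 1.56 FPM in WT HFD, so the diets overlapped. Fbn1 had a log2 fold change of 0.49 in WT and 0.41 in KO. Its WT SFD kidneys spread from 2.89 FPM in a18 to 15.3 FPM in a17, more widely than any other group of this gene. Fbln5 had 0.54 in WT and 0.26 in KO, and Emilin1 0.50 and 0.19. Both had the same extremes, with Fbln5 at 29.8 FPM in a18 and 171 FPM in a17, and Emilin1 at 11.1 FPM in a18 and 53.3 FPM in a17. Eln had the smallest change over both genotypes, 0.11 with an interval from -0.21 to 0.42, and ranged from 4.90 to 11.6 FPM over the 20 kidneys.

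Markers of other cells varied with these 2 kidneys. The summed endothelial markers were 96.9 FPM in a18 and 330 FPM in a17, the lowest and highest of the 20 kidneys, while the summed tubule markers were 10601 FPM in a18 and 10766 FPM in a17. The summed fibroblast markers were 25.3 FPM in a18, the lowest of the 20, and 69.6 FPM in a17. Without a17, 5 of the 10 genes were called for diet over both genotypes, Fbn1 (0.64), Fbln2 (0.42) and Emilin1 (0.53) joining Efemp2 and Mfap5. Without a18, 2 of the 10 were called. The share of all genes called in these refits was not recorded, so the counts have no background beside them. With all 20 kidneys that share was 16.4%. In WT alone, leaving out a17 added a call for Emilin1 (log2 fold change 0.87, adjusted p = 0.0191, edgeR).

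Genotype called none of the 10 genes in kidney. The share of all genes called was 0% under SFD, 0% under HFD, 0% over both diets and 0% for the interaction, with 2.67%, 3.42%, 4.82% and 1.79% of genes at an unadjusted p under 0.05. Efemp2 came nearest over both diets, with a log2 fold change of KO against WT of 0.24 and an interval from -0.02 to 0.49 (adjusted p = 0.802, edgeR). Under SFD alone its KO kidneys, from 6.15 to 8.61 FPM, overlapped its WT kidneys, from 4.24 to 7.30 FPM. Mfap4 had the lowest value, -0.37 with an interval from -0.89 to 0.15, on at most 36 counts per kidney. For Eln the interval ran from -0.23 to 0.40.

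Partners of the elastic fibre outside the 10 genes were described from fixed lists. In aorta, the latent TGF-beta binding proteins Ltbp4 and Ltbp1 averaged 1233 and 950 FPM, the protease inhibitors Timp2 and Timp3 1062 and 574 FPM, and Bmp1, which processes procollagen and pro-lysyl oxidase, 173 FPM. Fbln7 averaged 108 FPM and Tgfb3 176 FPM. In these lists no gene was called for genotype or diet in aorta. Of 7 other microfibril genes, 5 other fibulin and EMILIN genes, 4 other cross-linking genes, 8 elastin-degrading enzymes and inhibitors and 3 TGF-beta ligands tested there, all counts of calls were 0. Loxl1, a lysyl oxidase tied to elastin, was listed at 0 in every aorta and kidney, as were Atp7a, Thsd4, Mmp12 and Timp1 of these lists. As with Tagln and Cnn1, a 0 in every library is not read as lack of expression.

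In kidney, calls among the partners for diet over both genotypes were all upwards, in a comparison that called 16.4% of all genes. Of 8 elastin-degrading enzymes and inhibitors tested, 4 were called, all of them enzymes. They were cathepsin S (Ctss, 0.72), cathepsin K (Ctsk, 0.62), cathepsin L (Ctsl, 0.35) and gelatinase A (Mmp2, 0.67). In that list 6 of the 8 had a positive change, and the lowest was -0.39 without a call. Of 4 cross-linking genes tested, 2 were called, Loxl2 at 0.65 (adjusted p = 0.0486, edgeR) and Bmp1 at 0.36 (adjusted p = 0.0114, edgeR), all as log2 fold changes. Loxl4 went the other way, at -0.79 and without a call. Its mean was 3.19 FPM in WT SFD, 1.86 FPM in WT HFD, 2.85 FPM in KO SFD and 1.63 FPM in KO HFD. None of the 7 other microfibril genes, 4 other fibulin and EMILIN genes or 3 TGF-beta ligands was called, with list medians of 0.13, 0.05 and 0.37. In the WT comparison, which called 6.71% of all genes, Ctss (0.80) and Bmp1 (0.50) were called. In the KO comparison, which called 6.34%, Ctsl (0.46) was called.

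Fibroblast markers rose beside these genes in kidney. Of 6 tested, 4 were called over both genotypes, beside 16.4% of all genes: Lum (1.36), Dpt (0.87), Scara5 (0.63) and Pi16 (0.60), which mark stromal fibroblasts, and the list median was 0.61. Lum was also called in WT (1.16) and in KO (1.56). The summed level of the list ranged from 25.3 to 69.6 FPM in WT SFD and from 55.8 to 86.4 FPM in WT HFD, and from 43.5 to 59.6 FPM in KO SFD and from 45.4 to 85.5 FPM in KO HFD, with Clec3b at 0. Lep, the adipocyte hormone leptin, was called over both genotypes (4.63, adjusted p = 0.00111, edgeR), and the summed adipocyte markers ranged from 0.413 to 22.5 FPM in KO SFD and from 1.33 to 111 FPM in KO HFD. In WT they ranged from 2.06 to 69.3 FPM under SFD and from 6.83 to 51.4 FPM under HFD, and 4 of the 6 adipocyte markers had a negative log2 fold change there, with a list median of -0.41. Of 5 tubule genes tested, Slc5a2 (0.83) and Slc12a3 (0.43) were called as well. The other tubule genes had negative changes without a call, down to -0.24, and the list median was -0.08. The cartilage marker Chad (1.23, at a mean of 0.316 FPM) was also called. Smooth muscle, endothelial, podocyte and pericyte lists had no call, with medians of 0.00, 0.19, 0.23 and 0.23. The part of other cells in the Efemp2 and Mfap5 differences was not tested.

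The 10 genes did not vary as a block across aortas. Over 19 values (the near-identical pair averaged), the Spearman correlation of log2(FPM + 1) was positive for 27 of the 45 pairs of genes. The points pool the 4 groups of diet and genotype. They also share the library, its scaling and the cell makeup of the piece of tissue, so these values are descriptions. Fbn1, Fbln1, Fbln2, Fbln5, Lox and, more loosely, Eln went up and down together. Fbn1 and Lox had rho = 0.80 (Pearson r = 0.79, and r = 0.78 without the 2 farthest values), and Fbln1 and Fbln2 had rho = 0.75 (r = 0.81, then 0.76). Eln and Lox had rho = 0.67 (r = 0.79), falling to r = 0.50 without the 2 farthest values. Mfap4 and Efemp2 went together (rho = 0.62, r = 0.55, then 0.64) and against that set. Efemp2 and Fbln2 had rho = -0.61 (r = -0.55, then -0.56), and Mfap4 and Lox had rho = -0.60 (r = -0.59, then -0.59). In kidney all 45 pairs were positive, from 0.19 to 0.84, with Fbln5 and Emilin1 highest (r = 0.95, then 0.86 without the 2 farthest values).

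**Figure D5:**
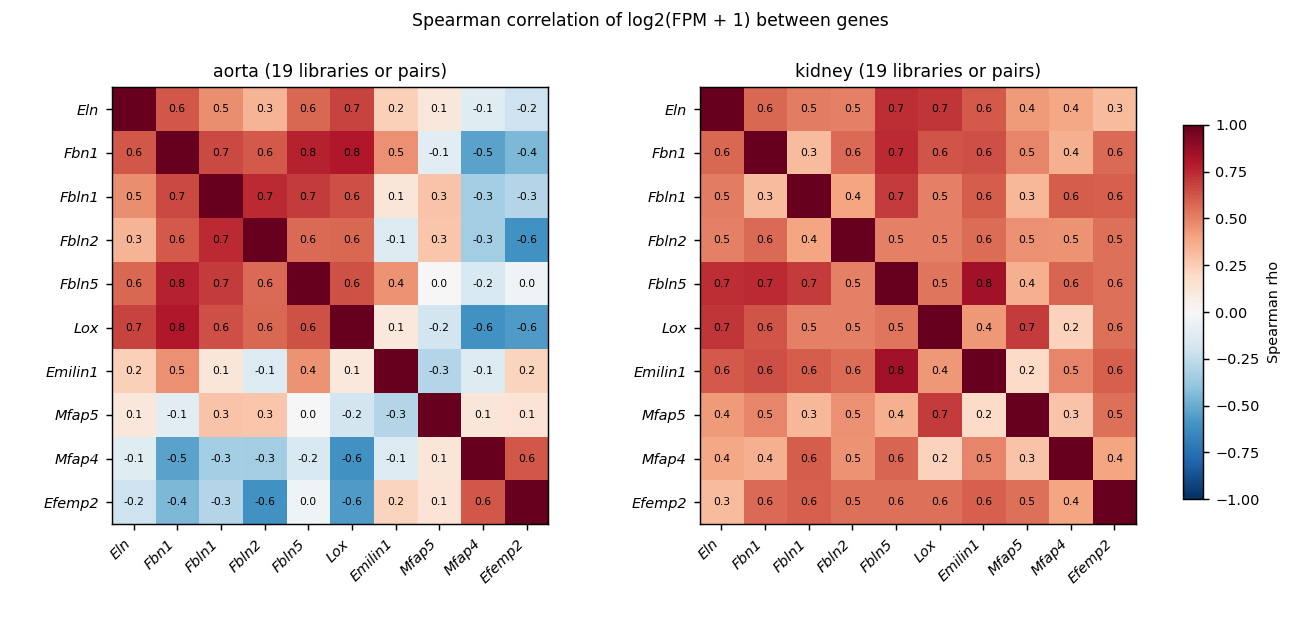
Spearman correlation of log2(FPM + 1) between the elastic fibre genes in aorta (left) and kidney (right), over 19 values each with the near-identical pair averaged. In aorta 27 of 45 pairs are positive, with Mfap4 and Efemp2 against Fbn1, Fbln2 and Lox, and in kidney all 45 are positive.

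The same split was seen against summed cell markers in aorta. Efemp2 followed the summed smooth muscle markers (rho = 0.85, r = 0.87, and r = 0.85 without the 2 farthest values), and so did Mfap4 (rho = 0.64, r = 0.59, then 0.48). Fbln2 ran against them (rho = -0.79, r = -0.80, then -0.77). Acta2 made up most of this sum, at a mean of 21786 FPM beside 9210 FPM for Myh11, so these values describe mainly Acta2. A score that weights the listed genes equally ordered the aortas otherwise. It was -0.05 in R-11 and 0.54 in R-20, whose sums were 40151 and 32583 FPM. Correlations with that score were not tested. Fbln1 followed the summed fibroblast markers (rho = 0.88, r = 0.91, then 0.87), as did Fbln2 (rho = 0.89, r = 0.91, then 0.87). Fbln2 followed the summed endothelial markers about as closely (rho = 0.82, r = 0.92, then 0.85). Eln followed neither closely, with rho = -0.28 against smooth muscle (r = -0.36, then -0.39) and 0.49 against fibroblast markers (r = 0.37, then 0.42). Mfap5 had rho = 0.06 against smooth muscle (r = 0.07, then 0.27) and 0.23 against fibroblast markers (r = 0.23, then 0.28). It came closer to the summed adipocyte markers (rho = 0.52, r = 0.53, then 0.42). In kidney, Efemp2 had rho = 0.61 with the fibroblast sum (r = 0.69, then 0.53) and 0.06 with the smooth muscle sum (r = 0.08, then -0.15). Mfap5 there had rho = 0.68 with the fibroblast sum (r = 0.62, then 0.69) and 0.61 with the adipocyte sum (r = 0.60, then 0.61). These values pool the diets too. Mean levels of Efemp2, Mfap5 and the fibroblast sum were higher under HFD in both genotypes, and the mean adipocyte sum in KO only.

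The genes most alike to each member were sought among 9737 aortic genes of at least 5 FPM, by Spearman correlation over the same 19 values. For Fbn1 they were Pon3 (rho = 0.97), Alcam (0.96) and the pseudogene Rbpj.ps3 (0.96). For Lox they were Snx18 (0.96), Mdfic (0.95) and Lancl2 (0.95). Fbln5 was closest to P3h3 (0.95), a collagen prolyl hydroxylase, Gaa (0.91) and Fkbp9 (0.90). Efemp2 was closest to Rab1b (0.94), Chmp4b (0.94) and P3h4 (0.93), the first of which acts in traffic from the endoplasmic reticulum. Fbln1 was closest to C1ra (0.93), Mmp2 (0.93) and Entpd2 (0.93), and Fbln2 to Cd34 (0.93), Ackr3 (0.92) and Stxbp6 (0.91). Mfap4 was closest to R3hcc1l (0.86), Lgals3 (0.86) and Sphk1 (0.85), and Emilin1 to Chst14 (0.84), Fam53b (0.83) and Gna11 (0.82). Eln and Mfap5 had no near match. Eln reached 0.75 with Cep57l1, 0.70 with Gorab and 0.70 with Pcdhb14. Mfap5 reached 0.74 with Aif1, 0.73 with Igfbp6 and 0.73 with Comp, the last encoding a matrix protein of cartilage and vessel wall.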

How the data were processed

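Whole aorta, freed of adjacent tissue, and kidney were sequenced in 40 libraries, and groups were taken from the labels. The authors deposited 1 table of raw counts per gene for each tissue. Per the methods, paired-end reads were mapped to GRCm38 and counted with featureCounts, and the submitters' processing notes name HISAT2 2.1.0 as mapper where the methods name another tool. The deposited counts ranged from 17520161 to 48833447 per library.

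Counts were filtered with filterByExpr, scaled by TMM and fitted per tissue over 20 libraries and 4 groups with edgeR 4.0.16 (quasi-likelihood, robust) in R 4.3.3, with Benjamini-Hochberg adjustment over all genes tested. A call is an adjusted p under 0.05. FPM is counts per 1000000 of TMM-scaled library size. Positions, exon lengths and overlaps come from GENCODE M21 and promoters from RefSeq, both on GRCm38. The scripts were tested on simulated data. Alternatives were DESeq2 1.42.0 (test and size factors), no filter on low counts, the methods' limits of 1.5-fold and 5 FPM, leaving out each library and leaving out both near-identical libraries. Alternative FPM used total counts.

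All 10 genes were named in every comparison. Other list genes were named where called or among the 2 highest of their list, shortened to those that bear on the fibre. The genes most alike were the 3 with the highest Spearman correlation in aorta. Genes, lists and tests were chosen with earlier results of these data known. No number in the labels links libraries across groups.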

Additional observations from a re-analysis of the deposited data

Results flagged for a closer look

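In each tissue 40 groups of 5 libraries (10 genes in 4 groups) were checked for a single value far from the others, and 6 of the 80 stood out, 4 in aorta and 2 in kidney. Chance alone flags about 1 group in 20. Fbn1 in the WT HFD aorta R-10 measured 575 FPM, with the next value at 355 FPM. Emilin1 in the same aorta measured 424 FPM, with the next at 261 FPM. Mfap5 in the WT SFD aorta R-1, a member of the near-identical pair, measured 391 FPM, with the next at 305 FPM. Efemp2 in the WT HFD aorta R-9 measured 108 FPM, below the next at 157 FPM. In kidney, Mfap4 in the KO HFD kidney a4 measured 1.18 FPM, with the next at 0.653 FPM, and Mfap5 in the WT HFD kidney a13 measured 1.46 FPM, with the next at 0.800 FPM. No cause was tested for these values.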

How the results depend on the processing

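The rise of Efemp2 in kidney under HFD kept its direction and its call under all 25 alternatives in each of 3 comparisons, with log2 fold changes from 1.05 to 1.22 in WT, from 0.79 to 1.05 in KO and from 0.97 to 1.09 over both genotypes. Counts of elastic fibre genes called kept within 1.5 times of the reported count in 341 of the alternatives and moved in 9, and no named value reversed. The reported count was 0 in every aortic comparison and for genotype and the interaction in kidney. There an unchanged count sets 0 beside 0 and says little about stability. In aorta, DESeq2 called 1 gene for diet over both genotypes (Mfap5, where edgeR called 0), and Mfap5 ranged from -0.52 to -0.39. In kidney, DESeq2 called 2 genes for diet in KO, Mfap5 joining at 1.19 (adjusted p = 0.0478, DESeq2), and the limits of 1.5-fold and 5 FPM left 1 gene over both genotypes because Mfap5 lies below 5 FPM. Leaving out 1 kidney at a time gave 1 to 2 calls in WT, 1 to 2 in KO and 1 to 5 over both genotypes. Shares of all genes called were not recorded for any alternative, DESeq2 included, so these counts have no background beside them. In KO the second call was Mfap5, without a5 (1.38) or without a17 (1.19). Without a8, Fbln2 was called over both genotypes (0.42, adjusted p = 0.0480, edgeR) beside Efemp2 and Mfap5. Leaving out any 1 aorta gave 0 calls in every comparison. FPM by total counts moved no gene's mean by as much as its SD. TMM factors ran only from 0.909 to 1.09, so a shift of that size could hardly arise. Differences between groups were not compared under that scaling. The mean Spearman correlation over the 45 pairs was 0.16 in aorta and 0.51 in kidney, and 0.14 without R-9 and 0.46 without a13, the libraries that moved it most. The cause of these changes was not tested. No paired analysis was possible because no replicate number is shared between groups. Depth limits Mfap4 and Mfap5 in kidney, at 4 to 38 counts per library.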
